A study of Rattus norvegicus with 30 samples.

Results

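The genes of sterol synthesis and its regulation were followed in rat hippocampal neurons exposed to DMF (dimethyl fumarate), CBD (cannabidiol) or MMF, the monomethyl ester of fumaric acid. The set was listed by gene function, with earlier results of these data known, and comprised 34 of the 21993 genes listed in the tables. It holds 7 genes of the mevalonate steps, 12 of the squalene and sterol steps, 4 of sterol sensing, 7 of uptake, transport and storage, and 4 of efflux and turnover. RNA was sequenced from 30 libraries in 10 groups of 3, and 33 of the 34 genes had enough reads to be tested. The exception was Npc1l1, the intestinal sterol uptake protein, which was at 0 in 19 of the 30 libraries and had at most 6 reads in any of them.

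All groups were primary neurons of wild-type Wistar rats taken at embryonic day 18 and kept for 7 days in culture. DMF and MMF were given at 30 µM with 0.2% DMSO as their vehicle, and CBD at 6 µM with 0.2% ethanol (EtOH) as its own vehicle. Each drug and each vehicle was sampled after 4 h and after 24 h, in 3 numbered replicates that the submitters describe as independent experiments. MMF is the monoester left when DMF loses a methyl ester group by hydrolysis, so that the pair differ by that methyl group. The cultures were not sorted, and in bulk RNA fewer cells of a type and less RNA per cell cannot be told apart.

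Neural cells make most of their own cholesterol, because lipoproteins of the blood do not cross into the brain. The mevalonate steps build isoprenoid units from acetyl-CoA, squalene synthase joins them, and a chain of oxidases and reductases converts the cyclised product into cholesterol. When sterols in the endoplasmic reticulum are low, the escort protein Scap carries the transcription factor precursor Srebf2 to the Golgi, where proteases release the active part that raises transcription of the synthesis genes. When sterols are high, the Insig proteins hold Scap back, and oxysterols activate liver X receptors, known for raising the transporters Abca1 and Abcg1 and the ubiquitin ligase Mylip, which degrades lipoprotein receptors.

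The sequence before the start of transcription was examined because the members of this pathway are known to be transcribed together. In RefSeq's annotation of the rat build GRCr8, a window of 250 bases upstream of the start was found for 29 of the 34 genes and not for Pmvk, Fdft1, Sqle, Stard4 and Abcg1. On either strand, the CCAAT box (CCAAT or ATTGG), the binding motif of the factor NF-Y, was held by 22 of the 29 windows, or 75.9%, against 35.0% of 21851 windows of protein-coding genes. The GC box (GGGCGG or CCGCCC), the motif of Sp factors, was held by 25 windows, or 86.2%, against 38.9%. The classic sterol element core, searched as TCACNCCAC or GTGGNGTGA, was held by 0 of the 29 windows and by 0.897% of the protein-coding ones. Against all 33469 windows, coding or not, these shares were 34.0% for the CCAAT box, 30.5% for the GC box and 0.974% for the sterol core. Variants of the sterol core were not searched, and at so low a share 0 of 29 windows tells little. In the windows shown the motifs share no letters, and a match describes letters and not a bound site. The windows of 4 genes on which the results below turn are shown, with CCAAT and GC boxes in capitals, each read along its gene's strand. They are Msmo1 at chr16:29746863-29747112 on the plus strand, Idi1 at chr17:66547525-66547774 on the minus strand, Hmgcs1 at chr2:53382054-53382303 on the plus strand and Insig1 at chr4:8057770-8058019 on the minus strand.

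Msmo1: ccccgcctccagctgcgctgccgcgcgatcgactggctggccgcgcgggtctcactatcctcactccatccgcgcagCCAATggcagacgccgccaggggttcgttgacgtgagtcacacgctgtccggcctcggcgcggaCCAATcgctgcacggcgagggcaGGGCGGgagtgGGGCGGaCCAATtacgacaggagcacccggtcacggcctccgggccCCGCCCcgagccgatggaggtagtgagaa
Idi1: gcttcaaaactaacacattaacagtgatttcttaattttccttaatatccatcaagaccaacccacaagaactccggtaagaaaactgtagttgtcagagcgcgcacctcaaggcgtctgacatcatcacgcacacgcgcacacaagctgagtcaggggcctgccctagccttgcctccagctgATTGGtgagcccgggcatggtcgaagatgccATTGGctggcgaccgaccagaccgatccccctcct
Hmgcs1: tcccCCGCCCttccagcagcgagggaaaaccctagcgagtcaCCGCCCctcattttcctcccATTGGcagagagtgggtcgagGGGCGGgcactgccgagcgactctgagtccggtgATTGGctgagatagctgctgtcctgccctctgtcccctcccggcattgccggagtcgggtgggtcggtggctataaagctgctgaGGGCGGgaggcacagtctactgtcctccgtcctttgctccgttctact
Insig1: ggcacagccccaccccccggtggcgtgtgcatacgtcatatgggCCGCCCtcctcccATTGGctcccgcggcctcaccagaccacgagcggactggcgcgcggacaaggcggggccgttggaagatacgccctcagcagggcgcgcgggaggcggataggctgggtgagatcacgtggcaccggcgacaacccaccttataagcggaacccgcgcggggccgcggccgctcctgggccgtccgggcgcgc

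The Msmo1 window held 3 CCAAT boxes and 3 GC boxes. The Idi1 window held 2 CCAAT boxes and 0 GC boxes, the Hmgcs1 window 2 and 4, and the Insig1 window 1 and 1. The reads themselves were counted on the older build mRatBN7.2, where Msmo1 spans chr16:24980697-24998016, Idi1 chr17:61629594-61637357, Hmgcs1 chr2:51649497-51667100 and Insig1 chr4:7315495-7323952.

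Reads on genes ranged from 15108132 to 25367834 per library, with a median of 20088658. Levels are in CPM, reads on the gene scaled to the total reads of the library after that total was adjusted by edgeR's TMM scaling factor. Neuronal markers were high in every library. Map2, a dendritic microtubule protein, was at 884 to 1266 CPM and Tubb3, the neuronal tubulin, at 806 to 1556 CPM. Markers of other cell types were also present, with Gfap of astrocytes at 515 to 2722 CPM and Olig1 of the oligodendrocyte lineage at 272 to 720.0 CPM. Of the microglial markers, Csf1r reached at most 3.70 CPM, and Cx3cr1, P2ry12 and Tmem119 were at 0 in some libraries. Below, levels of a gene are given in CPM in replicates 1, 2 and 3. The log2FC is the difference of log2(normalized count + 1), a scale that understates the change of genes with few reads. Differences were tested with limma, and a gene passed at a Benjamini-Hochberg adjusted p under 0.05 over all genes tested. Levels are not compared between genes, because transcript lengths were not used here.

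Genes from the mevalonate steps to the last sterol step were lower with DMF at 4 h. Of the 33 genes tested, 9 were lower than in DMSO and 0 were higher, where 1.55% of all genes tested were lower. The 9 were 2 mevalonate genes, 6 squalene and sterol genes and the sterol carrier Stard4. The median log2FC of the 33 genes was −0.26, against 0.00 over all genes tested, and 26 of the 33 were below 0. The 3 DMF libraries lay below all 3 DMSO libraries for 15 genes, while 13.3% of all genes were placed in this way.

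Msmo1, the methylsterol oxidase that starts removal of the C4 methyl groups, gave 168, 213 and 178 CPM in DMSO at 4 h and 88.3, 96.4 and 83.3 CPM in DMF. Every DMF library was near 90 CPM and well under the lowest vehicle library, and the log2FC was −1.06 (SE 0.10, limma adjusted p = 0.00469). It ranked 12 of 14208 genes by p, and passed with any of the 6 libraries left out. Fdft1, squalene synthase, gave 208, 255 and 237 CPM in DMSO and 136, 129.6 and 139 CPM in DMF. The groups did not overlap, and the log2FC was −0.79 (SE 0.09, adjusted p = 0.00859).

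Among the mevalonate genes, Idi1, the isomerase that interconverts the isoprenoid units, gave 110.5, 148 and 109.7 CPM in DMSO and 79.9, 72.6 and 73.8 CPM in DMF. DMSO replicate 2 was the highest library, but all DMF libraries lay under the lowest DMSO library, with a log2FC of −0.69 (SE 0.12, adjusted p = 0.0255). Mvd, the decarboxylase that ends the mevalonate chain, gave 97.9, 126 and 107 CPM in DMSO and 66.6, 73.9 and 84.2 CPM in DMF. Its log2FC was −0.56 (adjusted p = 0.0447). Hmgcs1, the synthase of the step before mevalonate, had a log2FC of −0.48 that did not pass (adjusted p = 0.148), and its DMSO levels of 1129.7, 1762 and 1277 CPM were spread more widely than the DMF levels of 894, 1046 and 1009 CPM. Mvk, mevalonate kinase, was at −0.26 and Acat2, the thiolase at the entrance, at −0.29, and neither passed.

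The remaining squalene and sterol genes that fell were Sqle, squalene epoxidase (−0.51, adjusted p = 0.0252), Dhcr7, which reduces the last precursor to cholesterol (−0.54, 0.0335), Hsd17b7, the ketoreductase of C4 demethylation (−0.66, 0.0374), and Erg28, the scaffold of that enzyme complex (−0.50, 0.0493). Hsd17b7 was expressed at only 9 to 10.3 CPM in DMSO and 5.8 to 6.54 CPM in DMF, without overlap. All 12 genes of this group had a negative log2FC, down to Tm7sf2, a sterol reductase, at −0.07, and Sc5d, the sterol desaturase, at −0.09. Neither of these last passed.

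Stard4, which moves sterols between membranes, gave 32.1, 36.9 and 23.2 CPM in DMSO at 4 h and 17.5, 16.3 and 11.8 CPM in DMF. Replicate 3 was lowest in both groups, and the level fell by 1.00 on the log2 scale (SE 0.20, adjusted p = 0.0375). Insig1, the sterol sensor that retains Scap, gave 189, 272 and 179 CPM in DMSO and 129, 155 and 143 CPM in DMF. The groups did not overlap, yet with DMSO replicate 2 far above the others the log2FC of −0.56 did not pass (adjusted p = 0.0836). Of the other genes called at some time, Tmem97, which binds the lysosomal sterol transporter Npc1, was at −0.01, Soat1, which esterifies cholesterol for storage, at −0.13 and Abcg1, an efflux transporter, at 0.19, and none of these passed.

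**Figure D1:**
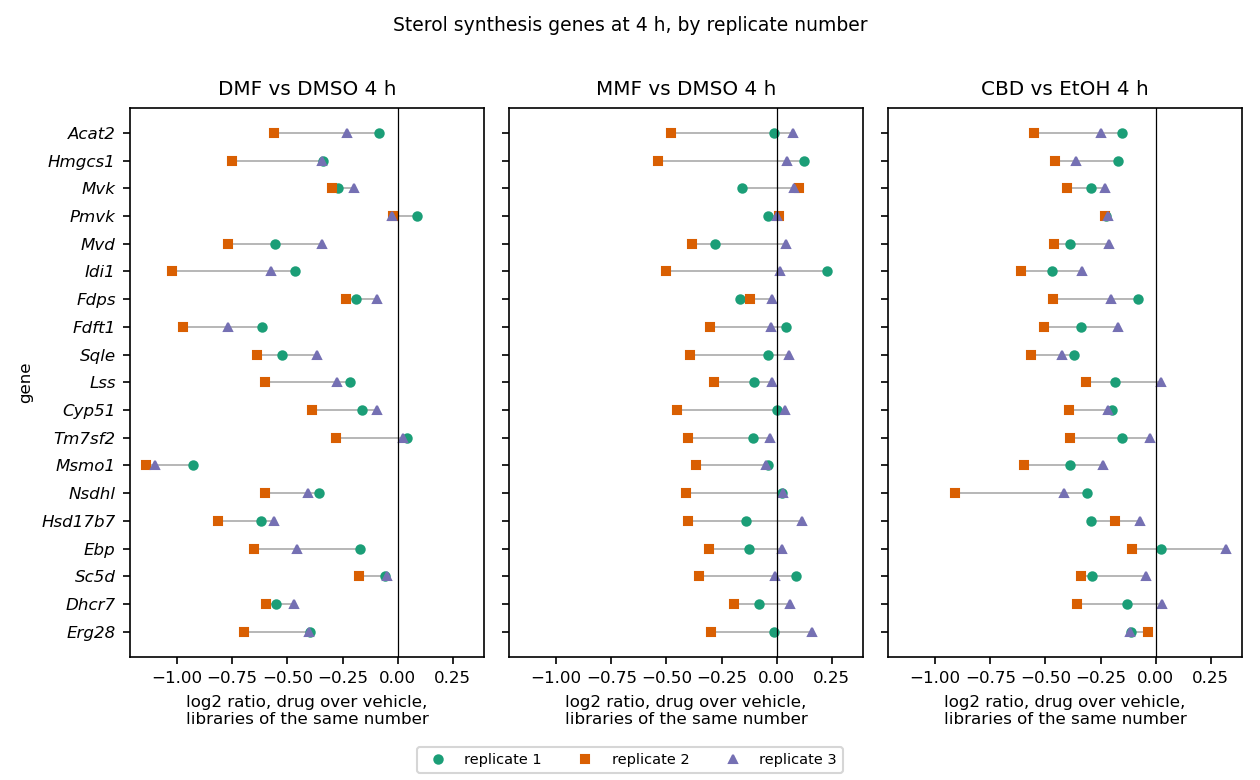
Log2 ratio (x axis) of each drug library to its same-numbered vehicle library at 4 h, for the 19 sterol synthesis genes (y axis), with a circle, square and triangle for replicates 1, 2 and 3 and a vertical line at 0. With DMF, 17 of the 19 genes were below 0 in all 3 pairs (background 26.3%), with MMF 4 (background 8.94%) and with CBD 16 (background 17.8%). Replicate 2 mostly gave the lowest ratio.

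Libraries of the same number were related across groups, so each comparison was also fitted with the replicate number as a block. With the replicate block, 18 genes were lower with DMF at 4 h (background 11.5%) and 2 were higher (background also 11.5%). The genes added on the low side included Insig1 (block adjusted p = 4.94e-05), Hmgcs1 (0.000180), Mvk (0.00613), Acat2 (0.00651) and the efflux transporter Abca1 (log2FC −0.46, 0.000749). The 2 higher genes were Npc1 (0.33), the lysosomal transporter, and its partner Npc2 (0.24). Without the replicate block, leaving out DMF replicate 1, 2 or 3 left 2, 1 or 2 of the 9 calls, and leaving out DMSO replicate 1, 2 or 3 left 3, 3 or 4. Markers of cell types moved in the same libraries. Of 10 neuronal markers, Tubb3 was lower without the block (log2FC −0.64, adjusted p = 0.0250), and with it 2 were lower and 1 was higher. The block fit also called 3 of 10 astrocyte markers and 2 of 9 oligodendrocyte lineage markers lower, and 5 of 10 proliferation markers higher. Summed normalized counts of the astrocyte markers were 46445 to 90222 in DMF and 53589.8 to 90717 in DMSO, and those of the proliferation markers 8003 to 9633 and 7204 to 8918. The part of cell composition in these results was not tested.

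At 24 h with DMF, 13 genes were lower (background 2.09%) and 2 were higher (background 1.88%). Lower genes included 5 of the 7 mevalonate genes and 6 of the 12 squalene and sterol genes, with Stard4 and Tmem97. The higher genes were Soat1 and Abcg1. Of the genes lower at either time, 8 were lower at both, which is 88.9% of the 4 h list and 61.5% of the 24 h list. The overlap between the 2 times over all genes was not counted. The median log2FC was −0.29 against −0.01 over all genes. The DMF libraries lay entirely below DMSO for 19 genes (11.5% of all genes) and entirely above for 7 (11.3%).

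Hmgcs1 gave 1309, 1517 and 1307 CPM in DMSO at 24 h and 914, 840.2 and 915 CPM in DMF. The DMF libraries were close together and all under the vehicle, with a log2FC of −0.63 (SE 0.08, adjusted p = 0.00500), and the call held with any library left out. Sc5d, which had not passed at 4 h, gave 83.8, 88.6 and 83.5 CPM in DMSO and 62.4, 61.8 and 64.2 CPM in DMF. Its log2FC was −0.44 (SE 0.06, adjusted p = 0.00576), the smallest SE among the synthesis genes that fell. Stard4 gave 33.4, 35.4 and 27 CPM in DMSO and 16.5, 16.1 and 19.5 CPM in DMF, a log2FC of −0.87 (SE 0.12, adjusted p = 0.00666) without overlap.

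Idi1 gave 123, 116 and 115 CPM in DMSO at 24 h and 71.8, 60.5 and 87.7 CPM in DMF, a log2FC of −0.70 (adjusted p = 0.0150). DMF replicate 3 was the highest of its group, as it was for 17 of the 19 synthesis genes, while it was the highest for 38.8% of 13280 expressed genes. Mvd, with 131, 133 and 120.2 CPM in DMSO and 59.2, 72.9 and 99.7 CPM in DMF, had the largest SE of the mevalonate genes that fell (log2FC −0.76, SE 0.16, adjusted p = 0.0333). Mvk (−0.59, 0.0244) and Acat2 (−0.46, 0.0311) completed the mevalonate calls, whereas Pmvk, phosphomevalonate kinase, was at 0.11 and Fdps, farnesyl diphosphate synthase, at −0.34 without passing. Among the sterol steps, Hsd17b7 (−0.61, 0.0333), Fdft1 (−0.52, 0.0259), Erg28 (−0.48, 0.0110), Dhcr7 (−0.42, 0.0244) and Sqle (−0.42, 0.0345) fell. Tmem97 was lower by a smaller amount (−0.29, 0.0374), with DMSO at 64.1 to 64.4 CPM and DMF at 51.4 to 54.5 CPM.

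Soat1 gave 31.4, 37.4 and 33.5 CPM in DMSO at 24 h and 55.8, 64.9 and 45.2 CPM in DMF. All DMF libraries were above all DMSO libraries, with a log2FC of 0.69 (SE 0.13, adjusted p = 0.0232). Abcg1 gave 18.3, 18.9 and 21.8 CPM in DMSO and 24.9, 31.3 and 28.4 CPM in DMF, a log2FC of 0.52 (SE 0.11, adjusted p = 0.0374) without overlap. Insig1 gave 211, 224 and 197 CPM in DMSO and 234, 331 and 296 CPM in DMF. Its DMF libraries were now the higher ones, though the log2FC of 0.44 did not pass (adjusted p = 0.0849). Mylip gave 10.6, 9.2 and 11.6 CPM in DMSO and 14.2, 15.4 and 13.5 CPM in DMF, again without overlap and without passing (log2FC 0.46, adjusted p = 0.0849).

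**Figure D2:**
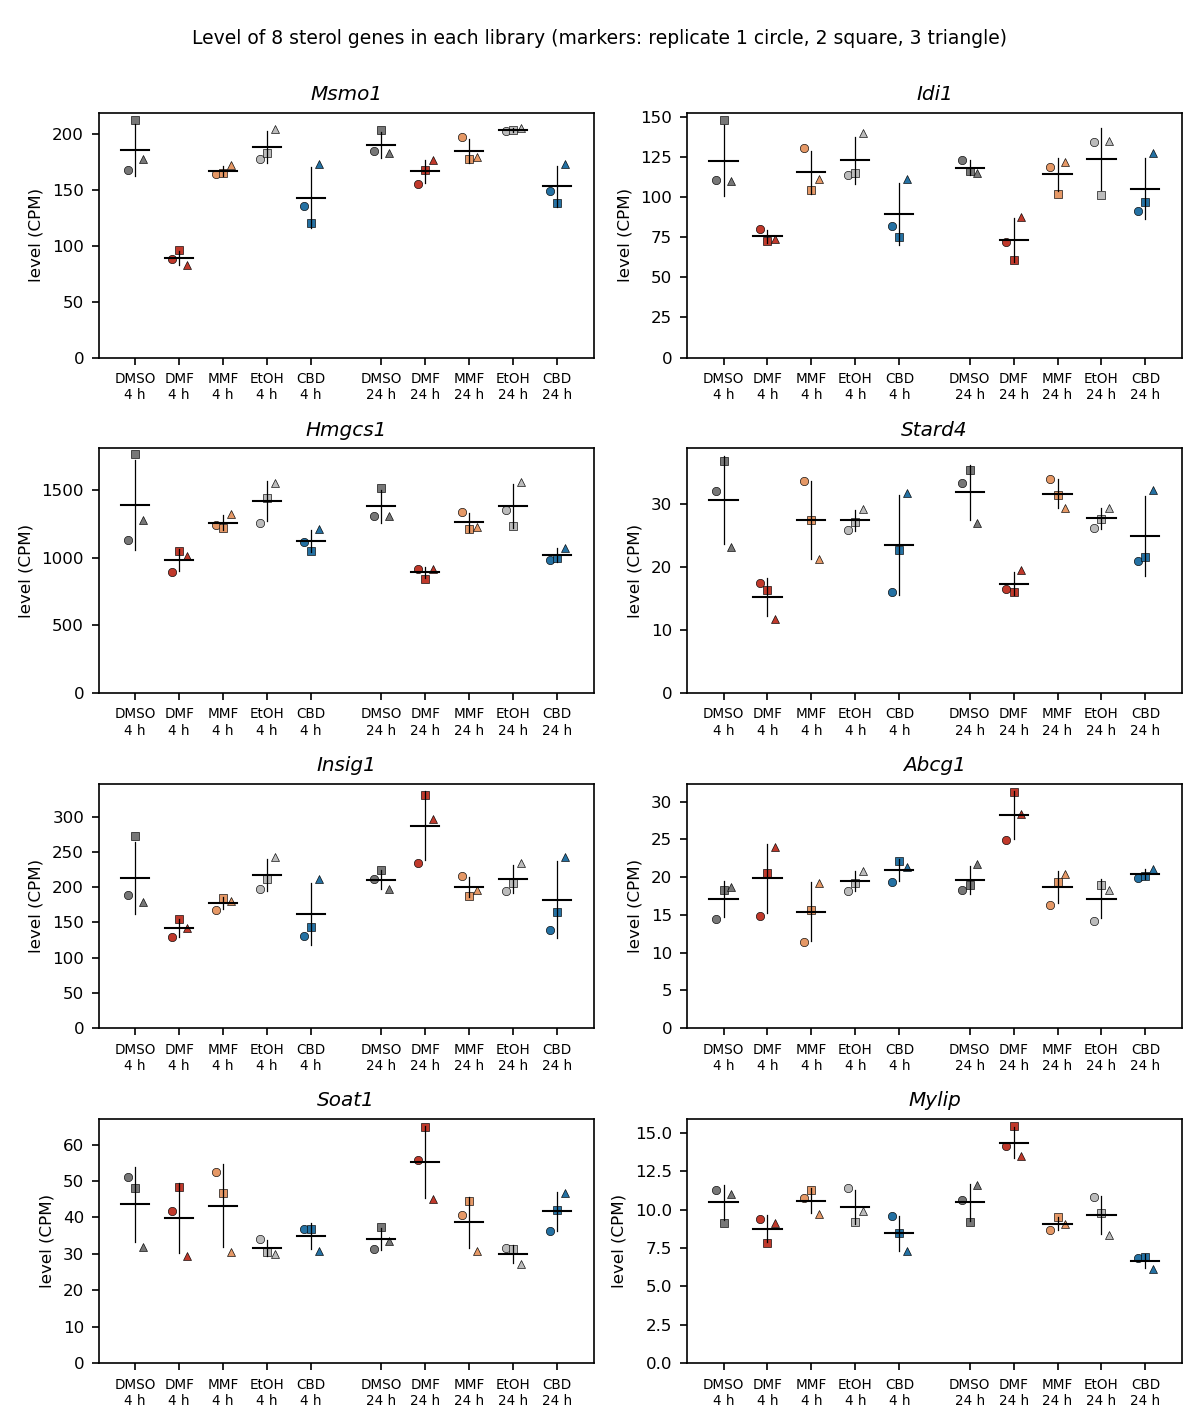
Level in CPM (y axis, from 0) of 8 genes in each of the 30 libraries, by group (x axis), with a circle, square and triangle for replicates 1, 2 and 3, a bar at the group mean and a line of 1 SD either way. Msmo1 had its lowest group mean in DMF at 4 h, Idi1, Hmgcs1 and Stard4 had their lowest 2 group means in DMF, and Insig1, Abcg1, Soat1 and Mylip had their highest group mean in DMF at 24 h.

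Fitted with the replicate block, 18 genes were lower at 24 h with DMF (background 7.1%) and 7 were higher (background 5.81%). The higher side then added Insig1, Mylip, Abca1 (log2FC 0.39), Cyp46a1, the neuronal hydroxylase that turns cholesterol over (0.23), and Npc2 (0.18). Without the block, 2, 4 or 6 genes passed when DMSO replicate 1, 2 or 3 was left out, and 8, 5 or 20 when DMF replicate 1, 2 or 3 was. Proliferation markers were lower in the same libraries, 9 of 10 passing with a median log2FC of −0.97, and their summed normalized counts were 2880 to 3531 in DMF and 6064 to 6404 in DMSO. Of 10 oligodendrocyte lineage markers, 8 were tested and 3 were lower, Cspg4 (−1.13), Pdgfra (−1.56) and Sox10 (−1.36), with summed counts of 11890 to 14672 in DMF and 14788 to 17828 in DMSO. Of 10 astrocyte markers, 7 were below 0 and 3 above, from −0.71 to 0.76, and only Aldh1l1 passed without the block (−0.65, adjusted p = 0.0403). With the block 4 were lower and 1, Gfap, was higher (0.76), and the astrocyte sums overlapped, at 59856 to 107931 in DMF and 56667 to 95014 in DMSO. The part of these cells in the sterol results was not tested.

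Msmo1 at 24 h gave 185, 204 and 183 CPM in DMSO and 156, 168 and 177 CPM in DMF. The groups did not overlap but lay close together, and the log2FC of −0.19 did not pass (adjusted p = 0.199). The difference between the DMF effects at 24 h and at 4 h was tested directly over 12 libraries. It was above 0 for 18 of the 33 genes and passed on that side for 2 (background 1.79%). They were Msmo1 with 0.86 on the log2 scale (SE 0.13, limma adjusted p = 0.00313) and Insig1 with 1.00 (SE 0.21, adjusted p = 0.0205). The Msmo1 call held with any of the 12 libraries left out and the Insig1 call in 9 of 12 cases. The count was 1 without DMF replicate 2 of 24 h or DMSO replicate 1 or 3 of 24 h, and 4 without DMSO replicate 2 of 4 h. Under the replicate block, 5 genes were higher (background 6.24%), adding Mylip (0.71), Soat1 (0.81) and Abca1 (0.85), and 2 were lower (background 6.96%), Sc5d (−0.35) and Tmem97 (−0.28). The other genes called with DMF lay between −0.34 for Mvk and 0.33 for Abcg1 and did not pass. Of the proliferation markers, 8 of 10 were lower in this difference (background 2.33%, median −1.19). The oligodendrocyte lineage marker Cspg4 was lower too (−1.13, adjusted p = 0.00578), and 3 of the 10 of its list were with the block. The part of these markers in the difference was not tested.

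**Figure D3:**
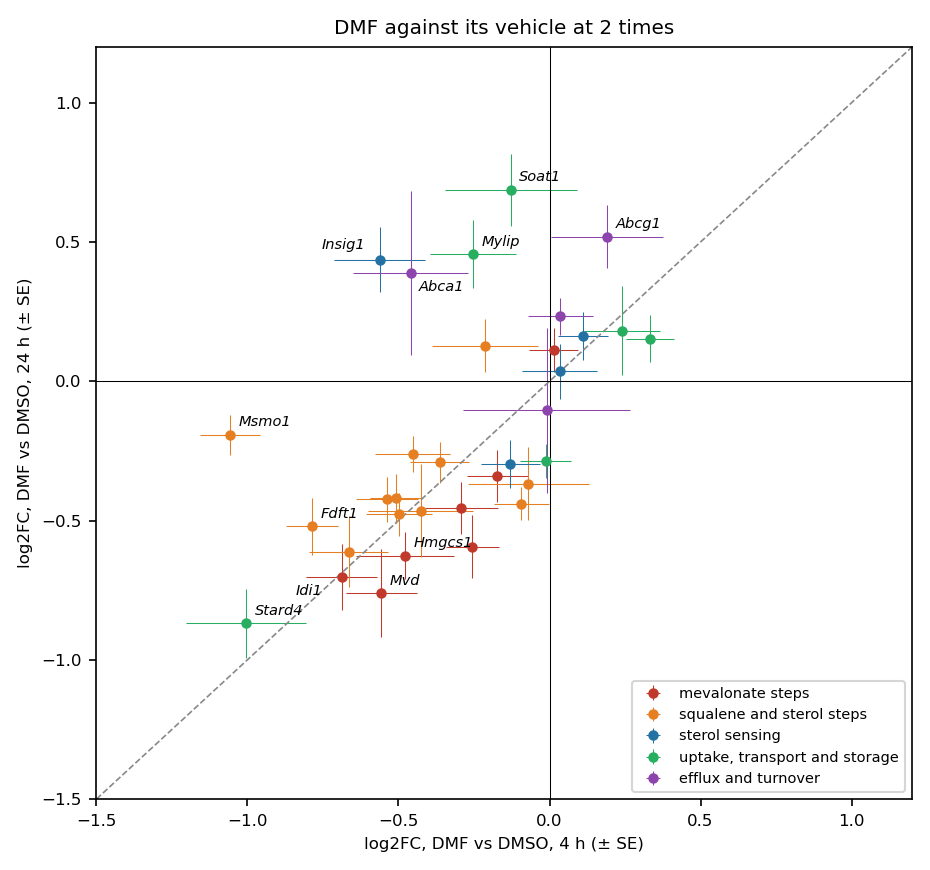
Log2FC of DMF against DMSO at 24 h (y axis) and at 4 h (x axis) for the 33 genes, with lines of 1 SE either way, colours for the role and a dashed line where both are equal. Most synthesis genes sit low on both axes, Msmo1 lies well above the dashed line, and Insig1, Abca1, Mylip and Soat1 are below 0 at 4 h and above 0 at 24 h.

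A further list held 38 regulators and transporters outside the 34. At 4 h with DMF, 1 of 32 tested was lower (3.12%, against 1.55% of all genes), Mbtps1, the protease that makes the first cleavage of the Srebf2 precursor (log2FC −0.59, adjusted p = 0.0133). At 24 h, 2 of 32 were higher (6.25%, against 1.88%), Rnf145, a ubiquitin ligase induced by sterols (0.94, adjusted p = 0.00116), and Lipa, the lysosomal lipase that frees cholesterol from its esters (0.47, adjusted p = 0.0289). With the replicate block, 6 of the 32 were higher and 3 lower at 4 h (background 11.5% either way). At 24 h, 7 were higher (background 5.81%) and 1 was lower (background 7.1%). Mbtps1 (0.54) and Rnf145 (0.62) also differed between the DMF effects at the 2 times (adjusted p = 0.00831 and 0.0468). Srebf2 itself was at −0.13 at 4 h and −0.30 at 24 h, and Scap at 0.11 and 0.16, none of them passing without the block. The block made Srebf2 a call at 24 h (block adjusted p = 0.0144).

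With MMF at 4 h, 0 of the 33 genes passed in limma, DESeq2 or edgeR (limma background 0%), and 0 had an unadjusted p under 0.05 (background 0.257%). The log2FC was below 0 for 30 of 33 genes, with a median of −0.12 against −0.01 over all genes tested. In all 3 same-numbered pairs, 6 genes were lower (background 8.94%). The smallest p-values belonged to Insig1 (log2FC −0.24), Msmo1 (−0.15) and Mvd (−0.21). The DMSO libraries of each time were the same as those set against DMF. Insig1 gave 168, 185 and 180 CPM in MMF and 189, 272 and 179 CPM in DMSO, where replicate 2 stood far above the others. Msmo1 gave 165, 165 and 172 CPM in MMF, at the level of DMSO replicate 1, and the 95% interval of its log2FC ran from −0.37 to 0.07. The 16 genes called with DMF at either time lay between −0.21 for Mvd and 0.01 for Mvk.

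With MMF at 24 h, 0 genes passed in limma, DESeq2 or edgeR (limma background 0.00707%). Unadjusted p-values under 0.05 were found for 3 genes (background 4.43%), Mvd (log2FC −0.18), Lss, lanosterol synthase (−0.18), and Srebf2 (−0.11). Mvd gave 118, 109 and 113 CPM in MMF against 131, 133 and 120.2 CPM in DMSO, without overlap, and its interval ran from −0.31 to −0.04. The libraries did not overlap on the low side for 5 genes (background 5.11%), and 12 were lower in all 3 pairs (background 17.6%). The log2FC was negative for 31 of 33 genes, with a median of −0.08 against −0.0002 over all genes tested. The 16 genes called with DMF lay between −0.18 for Mvd and 0.16 for Soat1. In the fit with the replicate block, Lss alone was lower (block adjusted p = 0.0404, background 0.17%). The MMF effects at the 2 times did not differ for any gene in limma, DESeq2 or edgeR (limma background 0%), and 0 had an unadjusted p under 0.05 (background 0.909%). The 3 smallest p-values there were those of Mylip (−0.22), Insig1 (0.17) and Cyp46a1 (0.13), and the 16 genes called with DMF lay between −0.08 for Mvk and 0.19 for Soat1.

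DMF and MMF, 2 compounds of the same dose that differ by a methyl ester, were compared directly in 2 pairs, at 4 h and at 24 h. At 4 h, 3 genes were lower in DMF than in MMF (background 0.655%) and 0 were higher. Msmo1 differed by −0.91 (95% interval −1.09 to −0.73, adjusted p = 0.00875), the gene of rank 2 by p among 14200. Fdft1 gave 136, 129.6 and 139 CPM in DMF and 216, 207 and 233 CPM in MMF, a difference of −0.70 (−0.87 to −0.52, adjusted p = 0.0133). Idi1 gave 79.9, 72.6 and 73.8 CPM in DMF and 130.3, 105 and 111 CPM in MMF, a difference of −0.61 (−0.83 to −0.39, adjusted p = 0.0332). None of these groups overlapped. Stard4 differed by −0.85 (−1.31 to −0.39) without passing (adjusted p = 0.0793). Sc5d gave 74.6 to 83.4 CPM in DMF and 74.1 to 83 CPM in MMF, and its difference of −0.01 had an interval of −0.19 to 0.17. Genes called against DMSO at either time, 16 in all, lay between −0.91 for Msmo1 and 0.37 for Abcg1. With the replicate block, 16 genes were lower (background 11.6%) and 4 were higher (background 12%), and without it leaving out single libraries lowered the count to 0 without DMF replicate 1, DMF replicate 2 or MMF replicate 2. Among other sterol genes, Mbtps1 was lower (−0.55, adjusted p = 0.0348). No marker of a cell type or of proliferation passed without the block. With it, 3 of 10 astrocyte and 2 of 9 oligodendrocyte lineage markers were lower. Of 10 proliferation markers 3 were higher and 1 lower, and of 10 neuronal markers 1 was higher and 1 lower. The part of these markers in the differences was not tested.

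At 24 h, 6 genes were lower in DMF than in MMF (background 2.12%) and 2 were higher (background 1.43%). Stard4 gave 16.5, 16.1 and 19.5 CPM in DMF and 34.1, 31.5 and 29.5 CPM in MMF, a difference of −0.86 (95% interval −1.10 to −0.63, adjusted p = 0.00350) that held with any library left out. The other lower genes were Idi1 (−0.65, adjusted p = 0.0322), Mvk (−0.52, 0.0341), Hmgcs1 (−0.50, 0.0121), Dhcr7 (−0.39, 0.0252) and Sc5d (−0.36, 0.0469). Mylip gave 14.2, 15.4 and 13.5 CPM in DMF and 8.65, 9.53 and 9.06 CPM in MMF, a difference of 0.66 (0.41 to 0.91, adjusted p = 0.0152), with a clear gap between the groups. Abcg1 gave 24.9, 31.3 and 28.4 CPM in DMF and 16.4, 19.3 and 20.4 CPM in MMF, a difference of 0.60 (0.32 to 0.87, adjusted p = 0.0322). Msmo1 differed by −0.15 (−0.31 to 0.02) and did not pass.

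The remaining genes called against DMSO at either time were Tmem97 (−0.28), Erg28 (−0.41), Fdft1 (−0.41), Mvd (−0.58), Hsd17b7 (−0.46), Sqle (−0.33), Acat2 (−0.36) and Soat1 (0.52), and none of them passed against MMF at 24 h without the block. With the replicate block, 14 genes were lower (background 7.28%) and 6 were higher (background 4.95%). Leaving out single libraries gave 1 call without DMF replicate 2 or MMF replicate 1, 3 without MMF replicate 2, 4 without MMF replicate 3 and 14 without DMF replicate 3. Rnf145 was higher in DMF (0.97, adjusted p = 0.000917). All 10 proliferation markers were lower in DMF (median −1.12), with summed normalized counts of 3184 to 3897 in DMF and 7490 to 7952 in MMF, and 3 of 10 oligodendrocyte lineage markers were lower, Cspg4 (−0.98), Pdgfra (−1.33) and Sox10 (−1.30), with sums of 13143 to 16219 in DMF and 17473 to 18314 in MMF. The part of these cells in these differences was not tested. The comparisons of DMF with MMF use the DMF libraries that were also set against DMSO, and their counts are not independent of those above.

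**Figure D4:**
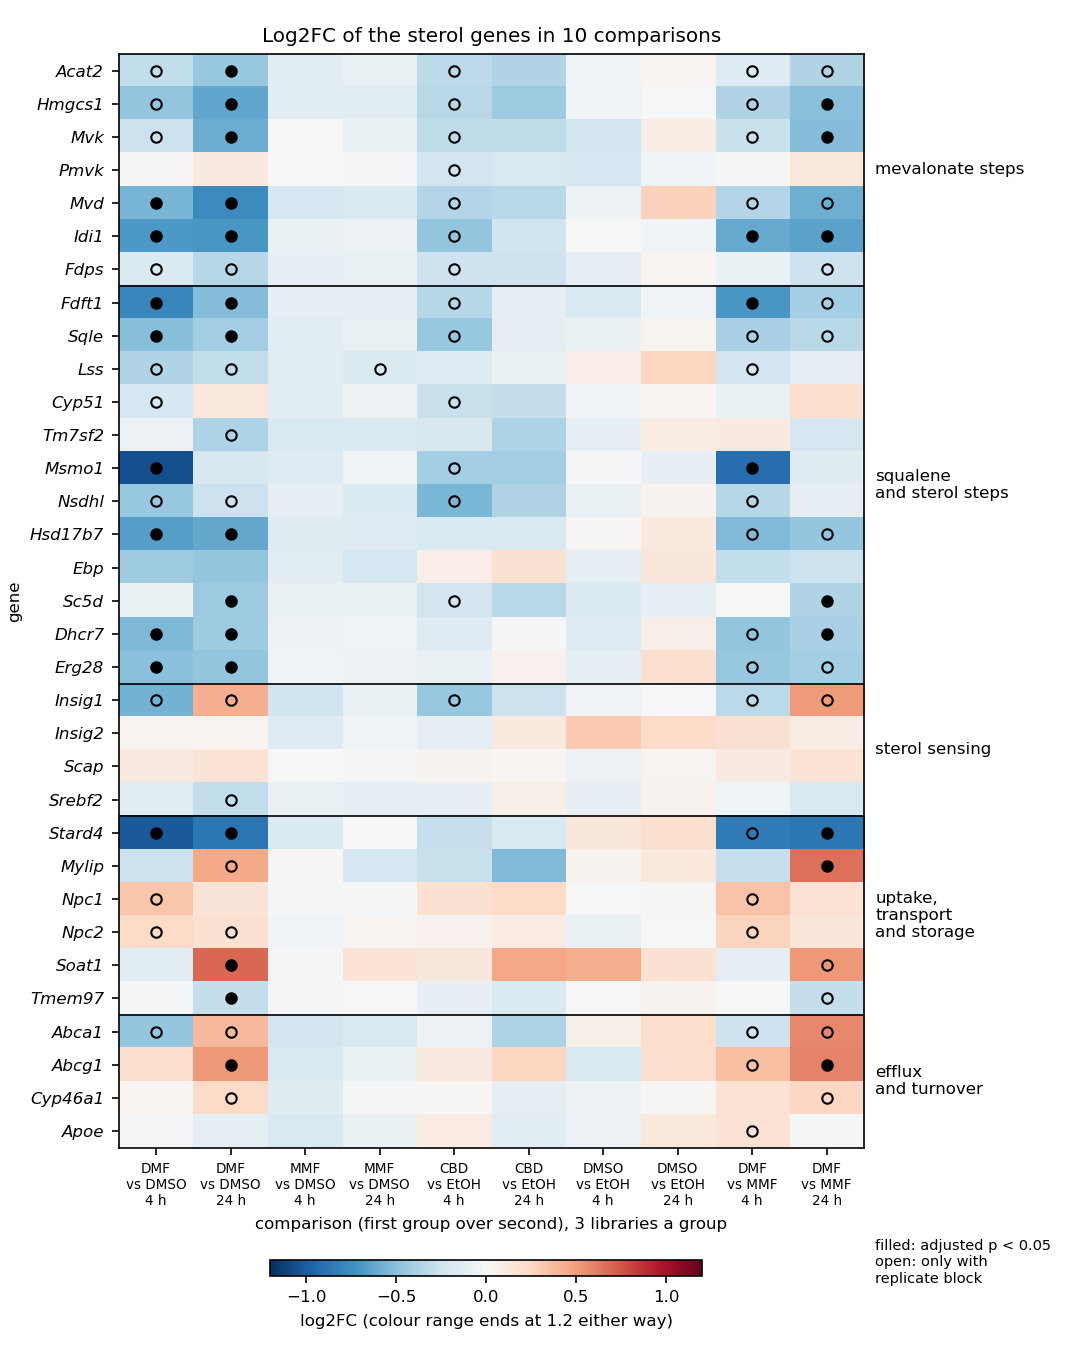
Log2FC (colour, blue for lower and red for higher in the first group) of the 33 genes (y axis, ordered by role) in 10 comparisons of 3 against 3 libraries (x axis), with a filled circle for a limma adjusted p under 0.05 and an open circle where only the fit with the replicate block passed. Filled circles stand only in the DMF columns, 9 and 15 against DMSO and 3 and 8 against MMF, and the CBD column at 4 h has 14 open circles.

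With CBD at 4 h, 0 of the 33 genes passed in limma, DESeq2 or edgeR (limma background 0.00705%). Unadjusted p-values under 0.05 were found for 11 genes (background 3.97%), and all 11 were lower than in EtOH. The smallest belonged to Sqle (log2FC −0.45), Nsdhl, the dehydrogenase of C4 demethylation (−0.55), and Msmo1 (−0.41). The median log2FC was −0.19 against −0.0007 over all genes tested, and 25 of 33 genes were below 0. In all 3 same-numbered pairs, 21 were lower (background 17.8%), and 7 did not overlap on the low side (background 5.25%).

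Sqle gave 322, 316 and 372 CPM in EtOH at 4 h and 248, 213 and 278 CPM in CBD. CBD replicate 3 was the highest of its group and EtOH replicate 3 the highest of the other, and every CBD library was below every EtOH library. Msmo1 gave 178, 183 and 205 CPM in EtOH and 136, 121 and 174 CPM in CBD, where CBD replicate 3 came close to the lowest vehicle library. Idi1 gave 114, 115 and 139.5 CPM in EtOH and 81.9, 75 and 111 CPM in CBD. CBD replicate 3 was the highest of the 3 CBD libraries for all 19 synthesis genes, against 38.2% of expressed genes. In the vehicle, EtOH replicate 3 was the highest for 13 of the 19, against 37.7%.

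With the replicate block, 14 genes were lower with CBD at 4 h (background 0.669%) and 0 were higher. They were all 7 mevalonate genes, 6 of the squalene and sterol genes and Insig1. The block adjusted p was 1.7e-05 for Sqle, 5.2e-05 for Idi1 (log2FC −0.47), 0.000235 for Insig1 (−0.45), 0.000295 for Msmo1 and 0.000396 for Nsdhl. Mvd (−0.35), Fdft1 (−0.34), Hmgcs1 (−0.33), Acat2 (−0.32), Mvk (−0.31), Cyp51, the lanosterol demethylase (−0.27), Fdps (−0.25), Pmvk (−0.23) and Sc5d (−0.22) made up the rest. The genes called with DMF that did not pass here with the block were Stard4 (−0.27), Hsd17b7 (−0.18), Dhcr7 (−0.15), Tmem97 (−0.10), Erg28 (−0.09), Abcg1 (0.11) and Soat1 (0.14). Without the block, no marker of another cell type or of proliferation passed in limma. With it, the astrocyte marker Sox9 (0.35, block adjusted p = 0.00208) and the oligodendrocyte lineage marker Olig2 (0.24, 0.0263) were higher, and their part in the sterol values was not tested.

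With CBD at 24 h, 0 genes passed in limma or edgeR (limma background 0.114%), and 7 had an unadjusted p under 0.05 (background 9.83%). They were Msmo1 (log2FC −0.42), Sc5d (−0.33), Soat1 (0.46), Hmgcs1 (−0.44), Mylip (−0.53), Mvk (−0.31) and Nsdhl (−0.37). In DESeq2, 2 genes passed (DESeq2 background 1.21%), Hmgcs1 (adjusted p = 0.0160) and Msmo1 (0.0410), and with the replicate block 0 genes passed. Msmo1 gave 203, 204 and 206 CPM in EtOH and 149, 138 and 174 CPM in CBD. The EtOH libraries were nearly equal, the CBD libraries all lower and more spread. Hmgcs1 gave 1350.2, 1236 and 1555 CPM in EtOH and 982, 995 and 1074 CPM in CBD, again without overlap.

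The median log2FC with CBD at 24 h was −0.18 against −0.005 over all genes tested, and 24 of 33 genes were below 0. The libraries did not overlap on the low side for 7 genes (background 8.59%), and 16 genes were lower in all 3 pairs (background 22.8%). CBD replicate 3 was the highest CBD library for 18 of the 19 synthesis genes, against 39.5% of expressed genes. In the vehicle, EtOH replicate 3 was likewise the highest for 18 of the 19, against 37.4%. The 16 genes called with DMF lay between −0.44 for Hmgcs1 and 0.46 for Soat1. Gad1, the enzyme that makes GABA in inhibitory neurons, was lower with CBD at 24 h (log2FC −0.81, adjusted p = 0.0134). It was the only neuronal marker of 10 to pass, but all 10 were below 0 (median −0.20). Summed normalized counts of the neuronal markers were 100663 to 105573 in CBD and 106738 to 127240 in EtOH, without overlap. Of 10 astrocyte markers, 8 were below 0 and 0 passed. The part of these cells in the sterol values was not tested.

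The CBD effects at the 2 times did not differ for any gene in limma, DESeq2 or edgeR (limma background 0%), and 0 genes had an unadjusted p under 0.05 (background 4.31%). The smallest p-values were those of Soat1 (0.33), Sqle (0.35) and Insig2, the second retention protein of Scap (0.23). The 16 genes called with DMF lay between −0.11 for Hmgcs1 and 0.35 for Sqle.

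The effect of CBD against EtOH was set beside that of DMF against DMSO, although the doses and the vehicles of the 2 drugs differ. At 4 h the difference of the effects passed for 0 genes in limma (background 0.999%), 0 in edgeR and 1 of 33 in DESeq2 (DESeq2 background 3.42%), and 4 had an unadjusted p under 0.05 (background 14.9%). Under the replicate block, 3 genes passed with a positive difference (background 5.8%), Msmo1 with a difference of 0.65, Fdft1 with 0.44 and Dhcr7 with 0.38. The 16 genes called with DMF lay between −0.13 for Sc5d and 0.73 for Stard4. Mbtps1, of the other sterol genes, differed by 0.62 (adjusted p = 0.0188). With the block, 3 of 10 astrocyte markers and 1 of 10 neuronal markers were higher, and 3 of 10 proliferation markers were lower (background 4.65%). Their part in the difference was not tested.

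At 24 h, 1 gene differed (background 0.286%), Mylip, with a difference of −0.99 (SE 0.19, adjusted p = 0.0455). Mylip gave 10.8, 9.76 and 8.37 CPM in EtOH and 6.87, 6.94 and 6.13 CPM in CBD, below the vehicle, and its DMF libraries given above were over theirs. Under the replicate block, 2 genes were lower (background 1.47%), Mylip and Cyp46a1 (−0.34). The call for Mylip was lost without CBD replicate 1 or 2, EtOH replicate 1 or 2, or any DMF or DMSO library. The 16 genes called with DMF lay between −0.26 for Abcg1 and 0.68 for Stard4 and did not pass. Rnf145 differed by −1.54 (adjusted p = 0.000452). All 10 proliferation markers were above 0 (median 0.77). None of them passed without the block, and 3 were higher with it (background 1.1%). Under the block, 2 of 9 oligodendrocyte lineage markers were higher and 1 of 10 neuronal markers was lower. The part of these markers in the difference was not tested.

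The vehicles were compared with each other as a background. DMSO and EtOH differed for 0 of the 33 genes at 4 h and 0 at 24 h in limma, DESeq2 and edgeR (limma background 0% at both times). Signs were one-sided here too. The log2FC of DMSO over EtOH was below 0 for 26 of 33 genes at 4 h (median −0.06). At 24 h it was above 0 for 28 of 33 (median 0.05). The share of all genes below 0 was not counted in any comparison. At 4 h, 3 genes had an unadjusted p under 0.05 (background 3.79%), Insig2 (log2FC 0.31), Soat1 (0.44) and Mvk (−0.22). Soat1 gave 51, 48.1 and 31.8 CPM in DMSO and 34.2, 30.6 and 30.1 CPM in EtOH, with DMSO replicates 1 and 2 above the rest. At 24 h, 2 genes did (background 4.47%), Lss (0.26) and Mvd (0.28), and Erg28 (0.19) had the next smallest p. The 16 genes called with DMF lay between −0.22 and 0.44 at 4 h and between −0.11 and 0.28 at 24 h.

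Over the 19 synthesis genes, libraries were also placed by their median deviation from the mean of the 15 libraries of the same time, as log2(CPM + 1). At 4 h this median was −0.34, −0.25 and −0.25 in DMF, and −0.05, 0.35 and 0.06 in DMSO. It was −0.06, 0.01 and 0.11 in MMF, −0.15, −0.18 and 0.15 in CBD, and 0.06, 0.20 and 0.35 in EtOH. The DMF libraries were the lowest 3 of the 15, and DMSO replicate 2 stood apart from its group, being the highest DMSO library for 17 of the 19 genes against 35.6% of expressed genes. At 24 h the medians were −0.35, −0.29 and −0.08 in DMF, 0.14, 0.24 and 0.12 in DMSO, and 0.12, −0.03 and 0.08 in MMF. They were −0.29, −0.20 and 0.19 in CBD and 0.07, 0.02 and 0.25 in EtOH. DMF and CBD each had replicates 1 and 2 low and replicate 3 higher, and replicate 3 was also the highest of the EtOH libraries. The median over all 13280 expressed genes stayed within 0.01 of 0 in every library.

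**Figure D5:**
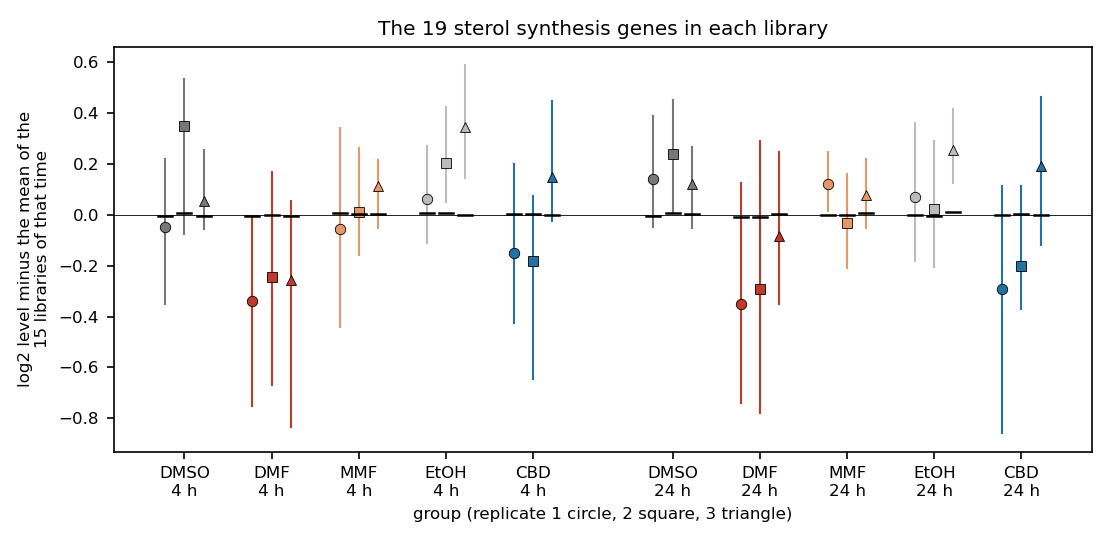
Median (marker) and range (line) over the 19 sterol synthesis genes of the log2 level minus its mean over the 15 libraries of that time (y axis), by group (x axis), with a circle, square and triangle for replicates 1, 2 and 3 and a black dash for the median of all 13280 expressed genes. Among the 15 libraries of 4 h, those of DMF lie lowest, between −0.34 and −0.25, and DMSO replicate 2 lies at 0.35. At 24 h, DMF replicate 1 lies at −0.35. The black dashes stay near 0.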

How the data were processed

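Poly(A)+ RNA of rat primary hippocampal neurons was sequenced by the authors in 30 libraries. Per the submitters' processing notes, reads were checked with FastQC 0.12.1, trimmed with cutadapt 4.4 and Trimmomatic 0.39, aligned to mRatBN7.2 with HISAT2 2.2.1, counted per gene with HTSeq 2.0.3 and compared in pairs of groups with DESeq2 1.40.2 in R 4.3.1. The strand setting of the counting is not given in the sources used here, so reads of overlapping genes on opposite strands cannot be told apart. The deposited values are a signal, reads on each gene scaled by the authors with DESeq2's size factors, separately in each table of 6 libraries. The same tables hold the authors' fold changes and p-values, which were not used. Of 19 tables, 10 were used, and those comparing CBD with a fumarate or 1 treatment between times were left out because other tables gave the same libraries.

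In the 10 tables, 100.0% of values were whole multiples of 1 step (tolerance 0.001), so that whole reads were recovered, and 0 values differed between tables. These reads served for CPM (with TMM factors), the filter on low counts and the count tests, and intervals cover 95%. Genes kept by edgeR's filterByExpr, 13967 to 14233 per pair of groups and 14313 to 14615 for differences of effects, were tested with limma 3.58.1 (empirical Bayes with mean trend) on log2(normalized count + 1), with Benjamini-Hochberg adjustment over all of them and a threshold of 0.05. Differences of effects were interaction terms over 12 libraries scaled by median-ratio size factors. Alternatives were DESeq2 1.42.0, edgeR 4.0.16 with TMM, limma with TMM, no filter, a pseudocount of 0.1, the replicate block and each library left out, all in R 4.3.3. Leaving out a replicate number in every group was added after seeing the data. Tables were made in Python 3.11.15 (pandas 2.3.3, NumPy 2.4.6) and plots with matplotlib 3.10.9. The procedures were tested on simulated data.

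Replicate numbers come from the sample titles, and the study describes 3 independent experiments. After removal of group means, same-numbered libraries correlated at 0.129 to 0.668 over genes in the 10 comparisons of pairs of groups, and other-numbered ones at 0.176 or less. In the differences of effects the lowest same-number value was 0.0974, for MMF, and the highest other-number value was 0.288, also for MMF. Same-numbered libraries were therefore not the more alike in every case. Whether the 3 experiments used separate litters is not stated, and p-values measure the spread between these libraries.

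The 34 genes and the lists of markers and other sterol genes were chosen with earlier results of these data known. Each gene with an adjusted p under 0.05 was named, or the 3 with the smallest p where there was none, and the 16 genes called for any drug against its vehicle were given in every comparison, as values or as a range. Other sterol genes were named only when called. Mylip, Abca1, Npc1, Npc2, Cyp46a1 and further genes that passed only with the replicate block were named after their values were seen.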

Additional observations from a re-analysis of the deposited data

Results flagged for a closer look

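The response to DMF differed between 24 h and 4 h for 2 of the 33 genes, by a test of the difference of the effects in limma. For Msmo1 the difference was 0.86 on the log2 scale (adjusted p = 0.00313), with a log2FC of −1.06 at 4 h and −0.19 at 24 h. For Insig1 it was 1.00 (adjusted p = 0.0205), with a log2FC of −0.56 at 4 h and 0.44 at 24 h. Neither passed on its own without the replicate block, and both passed with it (block adjusted p = 4.94e-05 and 0.00623). The response to CBD, with its own dose and vehicle, differed from that to DMF at 24 h for Mylip, by −0.99 (adjusted p = 0.0455), with a log2FC of −0.53 for CBD and 0.46 for DMF. Neither passed on its own without the block, and with it the DMF value passed (block adjusted p = 0.0339).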

How the results depend on the processing

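All 9 genes called with DMF at 4 h and all 15 called at 24 h were kept by DESeq2, by limma with TMM, by a pseudocount of 0.1 and by the replicate block. At 4 h, edgeR with TMM and the fit without the filter on low counts each kept 8 of the 9, and for DMF against MMF at 24 h, edgeR with TMM, limma with TMM and no filter each kept 7 of 8. No call turned its direction in any setting. DESeq2 also called more of all genes, and gave 14 calls for DMF at 4 h (7.21% of all genes called), 2 for CBD at 24 h (1.21%), 10 and 16 for DMF against MMF at 4 h and 24 h (5.24% and 5.82%), and 1 for the CBD effect minus the DMF effect at 4 h (3.42%). For DMF against MMF at 4 h, edgeR with TMM and limma with TMM gave 5 calls each in place of 3. Without the filter on low counts, the CBD effect minus the DMF effect at 24 h gave 0 calls in place of 1.

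With the replicate block, limma gave 20 calls and edgeR 21 for DMF at 4 h. Both gave 25 for DMF at 24 h, 1 for MMF at 24 h, 14 for CBD at 4 h, 20 for DMF against MMF at either time, 3 for the CBD effect minus the DMF effect at 4 h and 2 at 24 h. For the difference between the DMF effects at 24 h and 4 h, limma gave 7 and edgeR 8. The block changed no other count.

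Leaving out libraries gave ranges of 0 to 4 calls for DMF at 4 h, 0 to 20 for DMF at 24 h, 0 to 2 for DMF against MMF at 4 h, 0 to 14 at 24 h, 0 to 4 for the DMF effect at 24 h minus 4 h, and 0 to 2 for the CBD effect minus the DMF effect at 24 h. Without replicate 1 or 2 of every group, chosen after seeing the data, each of these counts was 0. The MMF effect at 24 h minus 4 h ranged from −0.019 to 0.28 for Insig1, below 0 without DMSO replicate 2 of 4 h, and from −0.0202 to 0.25 for Cyp46a1, below 0 without replicate 1 of every group. The cause was not tested. Comparisons not named gave 0 calls in every setting. With 3 libraries a group, differences of small size could not be told from the spread between libraries.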
